A study of Mus musculus with 6 samples.

Results

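Small leucine-rich proteoglycans, members of the SPARC family and 3 other matrix proteins were followed in sorted mouse mammary basal cells, 10 genes of the 22180 measured. They are the proteoglycan genes Dcn, Bgn, Lum, Fmod and Ogn, the SPARC family genes Sparc and Sparcl1, and Dpt, Mfap5 and Ccdc80. The genes were listed by name with earlier genotype results of these data known, and the probe set of each gene was chosen by its mean over all 6 arrays, the brightest being kept. Levels and genotype differences are therefore given as a description.

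The cells were the basal layer of the mammary epithelium, sorted by flow cytometry from adult virgin females aged 8 to 14 weeks after depletion of blood and endothelial cells with beads and staining that included CD49f and CD24. Of the 6 arrays, 3 were from wild type mice and 3 from mice of the genotype Trp53-/-, p16ink4a-/- and p19arf-/-, called knockout below, which lack the transcription factor p53 and both products of the Cdkn2a locus. The labels name 3 biological replicates of each genotype, without saying whether a replicate was 1 animal or a pool, and no treatment, transgene or Cre driver. Values are log2 signals of a probe set. Probe sets differ in how brightly they bind, so levels are compared between arrays and not between genes.

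The median gene lay between 5.73 and 5.81 on the 6 arrays, and no 2 arrays held the same values. The basal keratin Krt14 read 13.29, 13.51 and 13.30 in wild type and 13.27, 13.27 and 13.21 in knockout cells. Every knockout array was below every wild type array, with a difference of -0.12. Trp63, the transcription factor of the basal lineage, lay between 7.17 and 8.16. Cdkn2a signal was 6.25 ± 0.356 (SD, n = 3) in wild type and 6.32 ± 0.070 in knockout cells. Where its probes lie relative to the deleted part is not known here, so that gene checked no label.

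Small leucine-rich proteoglycans are secreted proteins whose leucine-rich repeats bind collagen and set the width and spacing of its fibrils. They carry chondroitin, dermatan or keratan sulfate chains and several of them hold growth factors such as TGF-beta in the matrix. SPARC and its relatives are matricellular proteins, which bind collagen and change how cells adhere without building fibres themselves. In the mammary gland most of these genes are known as products of stromal fibroblasts, and basal cells also add to the basement membrane.

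Signals of Dpt, Lum, Sparcl1 and Ogn were higher on every knockout array than on every wild type array. Dcn was higher on average with groups that overlapped. Bgn, Fmod, Sparc, Mfap5 and Ccdc80 differed between the genotypes by less than the spread of their arrays. In bulk RNA of sorted cells, more cells of a type and more RNA per cell cannot be told apart. All 10 members were measured, with no filter on low values, and none passed the test across all genes. With limma, 0 of the 10 members and 0 of all genes (0% of 22180) had an adjusted p under 0.05. At an unadjusted p under 0.05 there were 5 members and 736 genes (3.32%). Groups did not overlap, with the knockout higher, for 4 members and for 3.63% of all genes, and with the knockout lower for 0 members and for 4.05% of all genes. The difference was above 0 for 7 members and for 48.3% of all genes. The median difference, knockout minus wild type, was 0.30 over the members and -0.01 over all genes. Since earlier results were known when the members were listed, these counts say nothing further about the group.

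**Figure D1:**
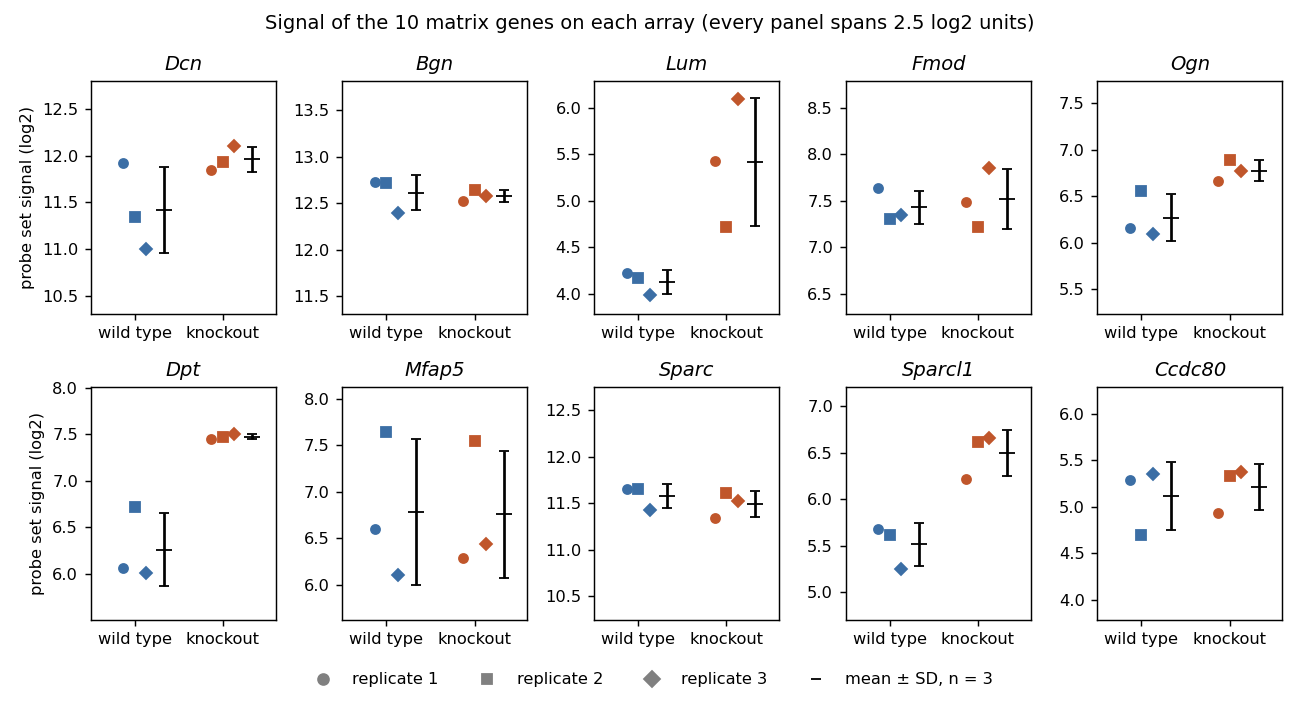
Log2 probe set signal (vertical axis) of the 10 genes on each array, with wild type in blue, knockout in orange, a symbol for each replicate number, and the mean ± SD of 3 arrays in black. Each panel spans the same number of log2 units. The genotypes do not overlap for Lum, Ogn, Dpt and Sparcl1, and Mfap5 is highest on replicate 2 of each genotype.

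Class I proteoglycans, which carry chondroitin or dermatan sulfate, were represented by Dcn and Bgn. Dcn encodes decorin, which coats collagen fibrils and binds TGF-beta. Its signal was 11.92, 11.34 and 11.00 on wild type replicates 1, 2 and 3 and 11.85, 11.93 and 12.11 on knockout replicates 1, 2 and 3. Wild type replicate 1 lay above knockout replicate 1, so the groups overlapped, and the other wild type arrays lay below all knockout arrays. The group means were 11.42 ± 0.463 (SD, n = 3) and 11.96 ± 0.132, a difference of 0.54 with a standard error of 0.210, or 1.45-fold (95% limma interval 1.05 to 2.02, not adjusted for the number of genes). Same-numbered arrays differed by -0.07, 0.59 and 1.10. Leaving out wild type replicate 3 gave a difference of 0.33. Leaving out replicate 1 of that genotype gave 0.79, with groups that no longer overlapped.

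Bgn encodes biglycan, the closest relative of decorin. It read 12.73, 12.72 and 12.39 in wild type and 12.52, 12.64 and 12.58 in knockout cells. The knockout arrays lay within the wild type range. The difference was -0.03 with a standard error of 0.113, and its 95% limma interval ran from 0.818-fold to 1.17-fold. Without wild type replicate 3, the lowest of its group, the remaining wild type arrays lay above all knockout arrays and the difference was -0.14.

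Class II proteoglycans, which carry keratan sulfate, were represented by Lum and Fmod. Lum encodes lumican, best known for ordering the collagen of the cornea and skin. It read 4.23, 4.17 and 3.98 in wild type and 5.43, 4.72 and 6.09 in knockout cells. The wild type arrays lay close together and below every knockout array, while the knockout arrays spread over 1.38 log2 units with replicate 2 nearest to wild type. The difference was 1.28 with a standard error of 0.294, or 2.44-fold (95% limma interval 1.54 to 3.86, adjusted p = 1.0). It lay between 0.95 and 1.63 without any 1 of the arrays. The Lum signal was below the median gene on every wild type array and on knockout replicates 1 and 2, and above it only on knockout replicate 3.

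Fmod encodes fibromodulin, which binds type I collagen and regulates its cross-linking. Its signal was 7.63, 7.30 and 7.35 in wild type and 7.48, 7.22 and 7.85 in knockout cells. Knockout replicate 3 was the highest of the 6 arrays and knockout replicate 2 the lowest. The difference was 0.09 with a standard error of 0.206 and an interval from 0.770-fold to 1.47-fold, and it was -0.08 when knockout replicate 3 was left out.

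Ogn, of class III, encodes osteoglycin, also called mimecan. It read 6.15, 6.56 and 6.09 in wild type and 6.66, 6.88 and 6.77 in knockout cells. The groups did not overlap, with a gap of less than the wild type range between wild type replicate 2 and knockout replicate 1. The difference was 0.51 with a standard error of 0.177, or 1.42-fold (95% limma interval 1.07 to 1.87, adjusted p = 1.0), and same-numbered arrays differed by 0.51, 0.33 and 0.68.

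Dpt encodes dermatopontin, a small matrix protein that binds decorin and TGF-beta and speeds collagen fibril assembly. It read 6.06, 6.71 and 6.01 in wild type and 7.45, 7.47 and 7.50 in knockout cells. The knockout arrays were within 0.06 log2 units of each other, and the wild type arrays spread over 0.71. The group means were 6.26 ± 0.393 (SD, n = 3) and 7.48 ± 0.028, a difference of 1.21 with a standard error of 0.211. This is 2.32-fold (95% limma interval 1.67 to 3.23, adjusted p = 1.0). Of all 22180 genes, 15 had a difference of this size or larger in the same direction, Dpt and Lum included. Without any 1 of the arrays the difference lay between 1.09 and 1.44. The adjusted p over the alternative settings lay between 0.139, with array weights, and 1.0.

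The SPARC family had 2 members here. Sparc encodes osteonectin, a collagen-binding glycoprotein of basement membranes and remodelling matrix. It read 11.66, 11.65 and 11.43 in wild type and 11.34, 11.61 and 11.52 in knockout cells, with groups that overlapped. The difference was -0.09 with a standard error of 0.124, and its interval ran from 0.776-fold to 1.15-fold. Without wild type replicate 3 it was -0.16 and both remaining wild type arrays lay above all knockout arrays. Sparcl1 encodes hevin, which shares the collagen-binding and calcium-binding end of SPARC. It read 5.68, 5.62 and 5.25 in wild type and 6.22, 6.62 and 6.66 in knockout cells. Every knockout array lay above every wild type array, and each group spread by less than the gap between the means. The difference was 0.98 with a standard error of 0.187, or 1.97-fold (95% limma interval 1.47 to 2.65, adjusted p = 1.0), and stayed between 0.85 and 1.12 without any 1 of the arrays. Whether Sparc and Sparcl1 differ from each other in their genotype difference was not tested.

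Mfap5 encodes MAGP-2, a protein of the microfibrils on which elastic fibres form. Its signal was 6.60, 7.64 and 6.10 in wild type and 6.29, 7.54 and 6.43 in knockout cells. Replicate 2 stood more than a log2 unit above the others in each genotype, and the genotype means were nearly equal at 6.78 ± 0.788 (SD, n = 3) and 6.76 ± 0.685. The difference was -0.03 with a standard error of 0.428. With the replicate number as a block the standard error was 0.184 and the adjusted p was 1.0. Spock2, a SPARC family proteoglycan outside the members, read 6.88, 7.63 and 6.62 in wild type and 6.68, 7.76 and 6.83 in knockout cells, also highest on replicate 2 of each genotype. Spock2 was singled out after its values were seen. What replicate numbers share is not given in the labels.

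Ccdc80 encodes a secreted matrix protein known from fat and connective tissue. It read 5.29, 4.69 and 5.35 in wild type and 4.93, 5.33 and 5.38 in knockout cells, below the median gene. The groups overlapped fully apart from wild type replicate 2, the lowest of the 6 arrays. The difference was 0.10 with a standard error of 0.209, and it turned to -0.11 without that array and to -0.11 with array weights.

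**Figure D2:**
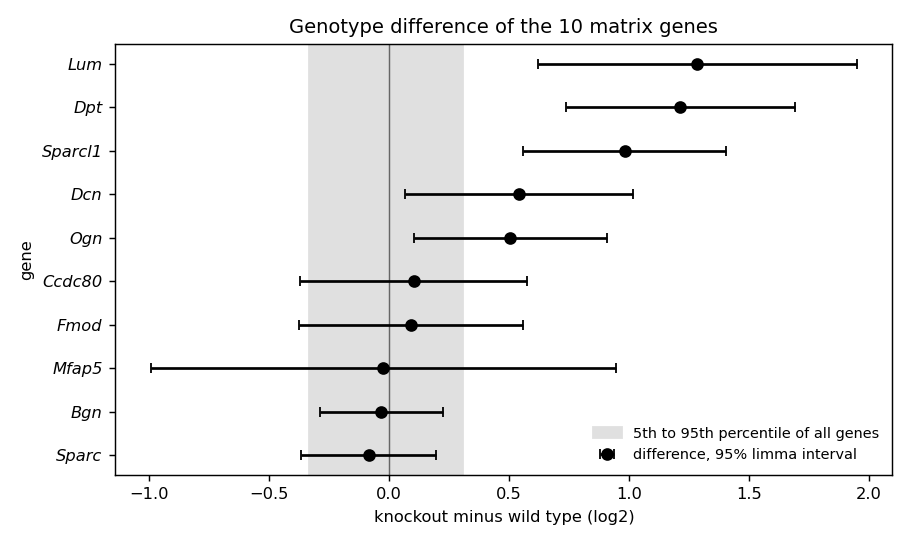
Genotype difference of each gene (points, knockout minus wild type, log2) with its 95% limma interval, which is not adjusted for the number of genes, in order of size. The grey band holds the 5th to 95th percentile of all genes, from -0.33 to 0.31. Lum, Dpt, Sparcl1, Dcn and Ogn lie beyond the band and the other 5 genes within it.

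The arrays could also be set apart by how the members moved on them. As the mean deviation from each gene's average over the 6 arrays, the members stood at -0.14, -0.10 and -0.44 on wild type replicates 1, 2 and 3 and at 0.08, 0.26 and 0.35 on the knockout replicates. Of the 10 members 7 were lowest on wild type replicate 3 and 6 were highest on knockout replicate 3, so the extremes came from arrays of the same number in opposite genotypes. Ogn followed this mean profile most closely, with a root mean square difference of 0.125 log2 units over the 6 arrays, and Mfap5 least, with 0.584. Among 10353 other named genes above the median gene, those nearest to the profile were Zfp46 (0.0611), Prr3 (0.0728), Klhdc3 (0.0850), Aire (0.0876) and Snx10 (0.0880). Each of these 5 genes was higher on all knockout arrays than on all wild type arrays, which the profile they were matched to favours.

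Several members lie beside relatives on the chromosome, as given by the order of protein-coding genes in a RefSeq table of GRCm38.p6. On chromosome 10, Dcn, Lum, Kera and Epyc follow each other. Lum and Dcn differed by 1.28 and 0.54, and Kera, the keratan sulfate proteoglycan of the cornea, and Epyc, of cartilage, by -0.05 and -0.02. On chromosome 13, Ecm2, Aspn and Omd precede Ogn. Ogn differed by 0.51 and the neighbours by 0.00, 0.14 and 0.01. Kera and Epyc, and likewise Omd and Aspn, had overlapping groups and were below the median gene. On chromosome 1, Optc and Prelp precede Fmod. Prelp, which links basement membranes to collagen, read 11.01, 11.44 and 10.43 in wild type and 10.97, 11.51 and 10.97 in knockout cells, a difference of 0.19 with overlapping groups. It too was highest on replicate 2 of each genotype.

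Promoter sequence was available for 5 members, Dpt, Ogn, Fmod, Bgn and Sparc, from RefSeq with the build GRCm38.p6. The 250 bases before the start are shown for Dpt and Ogn, whose arrays did not overlap, and for Bgn and Sparc, whose arrays did. Their positions are chr1:164796413-164796662 on the plus strand for Dpt, chr13:49607765-49608014 on the plus strand for Ogn, chrX:73483351-73483600 on the plus strand for Bgn and chr11:55420081-55420330 on the minus strand for Sparc. Each is written 5′ to 3′ in the direction of the gene, ending just before the start, and capitals mark matches on either strand to the motifs searched.
Dpt: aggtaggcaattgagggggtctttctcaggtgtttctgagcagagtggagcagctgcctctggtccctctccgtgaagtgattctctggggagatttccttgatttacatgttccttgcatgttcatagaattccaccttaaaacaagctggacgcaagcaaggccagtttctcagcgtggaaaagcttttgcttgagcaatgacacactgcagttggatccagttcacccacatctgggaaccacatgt
Ogn: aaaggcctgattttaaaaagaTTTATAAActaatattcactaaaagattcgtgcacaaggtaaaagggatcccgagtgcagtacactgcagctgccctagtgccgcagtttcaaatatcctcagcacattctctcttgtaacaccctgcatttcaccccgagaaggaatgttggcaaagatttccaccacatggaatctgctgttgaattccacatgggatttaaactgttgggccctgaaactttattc
Bgn: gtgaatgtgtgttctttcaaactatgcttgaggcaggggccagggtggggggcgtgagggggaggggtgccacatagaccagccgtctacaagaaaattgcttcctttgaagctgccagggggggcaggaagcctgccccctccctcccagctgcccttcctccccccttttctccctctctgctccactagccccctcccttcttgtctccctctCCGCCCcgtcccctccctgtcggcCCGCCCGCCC
Sparc: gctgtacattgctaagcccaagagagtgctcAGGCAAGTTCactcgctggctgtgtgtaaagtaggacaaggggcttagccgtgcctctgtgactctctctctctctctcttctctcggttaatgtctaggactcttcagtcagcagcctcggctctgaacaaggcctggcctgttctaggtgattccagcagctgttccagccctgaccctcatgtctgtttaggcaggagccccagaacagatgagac

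The motifs searched on both strands of these windows were the TATA box (TATAAA), the CCAAT box (CCAAT), the GC box (GGGCGG), the AP-1 site (TGANTCA) and the p53 half-site by its consensus. Among all 32851 promoter windows listed by RefSeq, 12.4%, 33.8%, 32.7%, 6.75% and 7.13% held them, in that order. Bgn had 3 GC boxes, beginning 34, 10 and 6 bases before the start, and the last of them overlapped the one before it. Ogn had 2 overlapping matches to the TATA box, beginning 229 and 227 bases before the start. Sparc had 1 p53 half-site, beginning 219 bases before the start. Dpt and Fmod had no match to any of the 5. GC content was 48.8% for Dpt, 42.0% for Ogn, 51.2% for Fmod, 64.4% for Bgn and 54.0% for Sparc, against a median of 52.4% over all windows. A match is only a run of letters, and these arrays measured no binding.

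Related matrix genes were counted from lists. None of them passed the threshold. Of 12 other small leucine-rich repeat proteins 9 had a difference above 0, with a median of 0.03, a largest difference of 0.27, for Optc, and 0 with groups that did not overlap. Of 6 other SPARC family genes 2 were above 0, with a median of -0.03. Fstl1, a secreted SPARC relative, lay between 9.28 and 9.42 on all 6 arrays. Of 15 microfibril and elastic fibre genes 10 were above 0, with a median of 0.01. Efemp1, which encodes fibulin-3, read 5.55, 5.30 and 6.02 in wild type and 6.70, 6.11 and 6.35 in knockout cells, a difference of 0.76 with groups that did not overlap. Mfap3, of the same list, lay the other way, with 6.39, 6.65 and 6.61 in wild type and at most 6.15 in knockout cells, a difference of -0.49 and groups that did not overlap either.

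Of 18 other matricellular genes 6 were above 0, with a median of -0.05. Ccn1, a matricellular integrin ligand induced by growth factors, read 8.65, 8.28 and 8.72 in wild type and 9.06, 9.23 and 9.06 in knockout cells, a difference of 0.56 with groups that did not overlap. Tnr, which encodes tenascin-R, had the smallest unadjusted p of the list and differed by -0.54, at 4.64, 4.53 and 4.76 in wild type and 4.45, 3.95 and 3.92 in knockout cells, also without overlap. Of 20 fibrillar collagen and cross-linking genes, on which these proteoglycans act, 11 were above 0, with a median of 0.04 and a mean of the other sign, -0.0021. Groups did not overlap for P4ha1 and P4ha2, which encode catalytic subunits of the collagen prolyl hydroxylases and differed by 0.44 and -0.36, and for Col5a1, a chain of type V collagen, which differed by 0.10. Of 26 large and cell surface proteoglycans 12 were above 0, with a median of -0.03 and a mean of the other sign, 0.01. Sdc1, the epithelial syndecan, differed by -0.27, with all knockout arrays below all wild type arrays, and Esm1, a secreted dermatan sulfate proteoglycan of endothelium, by 0.10, with all knockout arrays above.

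The enzymes that build the sugar chains were counted in the same way. Of 20 chondroitin and dermatan sulfate genes 10 were above 0, with a median of -0.01. Ust, which adds sulfate to uronic acid in these chains, read 7.01, 7.26 and 7.24 in wild type and 6.52, 6.71 and 6.14 in knockout cells, a difference of -0.71 with groups that did not overlap. Of 8 keratan sulfate genes 2 were above 0 and 6 below, with a median of -0.14 and overlapping groups for each. Of 12 proteases of this matrix 6 were above 0, with a median of -0.02, and Mmp3, which cleaves decorin, differed by 0.79 with groups that did not overlap. Of 17 growth factors and receptors that bind these proteins 10 were above 0, with a median of 0.04, and Met, the receptor that decorin binds, differed by -0.59 with overlapping groups. Tlr4, a receptor for soluble biglycan, differed by 0.25 with groups that did not overlap.

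**Figure D3:**
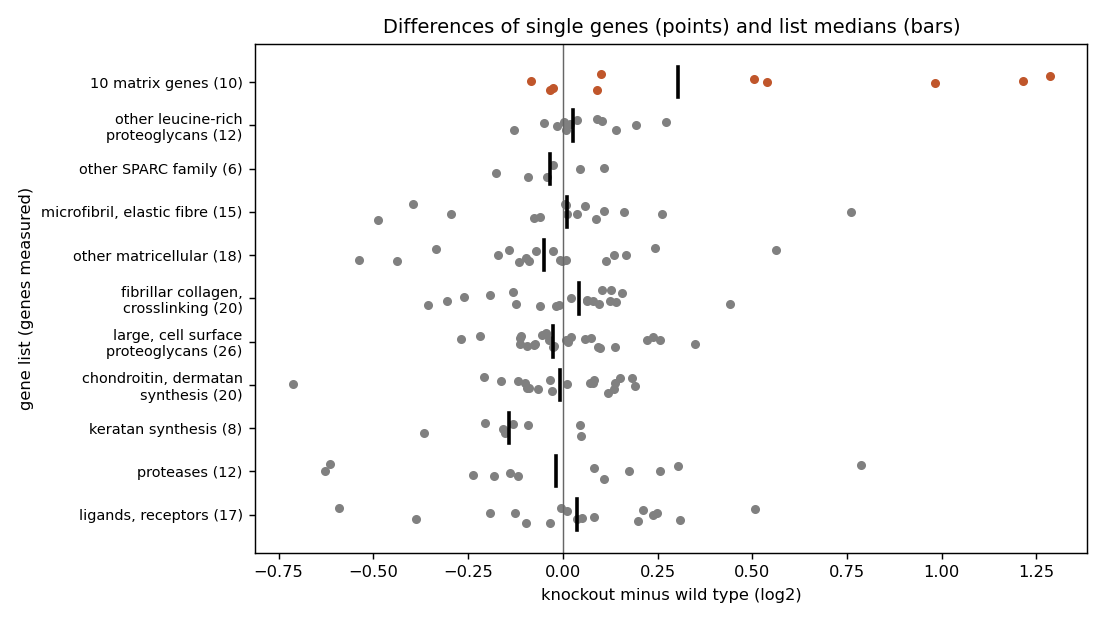
Genotype difference (knockout minus wild type, log2) of each measured gene of the 10 lists and of the 10 matrix genes in orange, with a black bar at each median. The number of genes measured stands in brackets. List medians lie between -0.14 and 0.04, and the median of the matrix genes, which were listed with genotype results known, at 0.30.

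Markers of stromal cells were read on the same arrays. Of 20 fibroblast markers, none of them a member and 9 of them also in another list, 19 had a difference above 0, with a median of 0.14. None passed the threshold and none had groups that did not overlap. Their summed level, on the linear scale, lay between 2892 and 3205 on the wild type arrays and between 3273 and 3299 on the knockout arrays, which did not overlap. Without Gpx3, the fibroblast marker with the widest spread, the sums were 2477 to 2828 and 2902 to 3078. With Gpx3 kept and Mmp2, the brightest of these markers on average, taken out instead, the sums of the genotypes overlap. Wild type replicate 3 is then the highest of all arrays. Mmp2 read 9.46, 9.69 and 8.48 in wild type and 9.53, 9.65 and 9.35 in knockout cells. Array signals have no true zero, so no marker is at 0. Pdgfra, the receptor that defines fibroblasts, read 5.09, 5.49 and 4.51 in wild type and 6.64, 5.78 and 5.23 in knockout cells. Its difference of 0.85 was the largest of the fibroblast list, with overlapping groups. Col1a1, the main collagen of fibroblasts, lay between 6.50 and 6.81 in wild type and between 6.69 and 6.80 in knockout cells. The part of fibroblast RNA in the differences of Dpt, Lum, Sparcl1, Ogn and Dcn was not tested.

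Of 13 adipocyte markers 10 were above 0, with a median of 0.09, and the summed level lay between 976 and 1168 in wild type and between 1407 and 1796 in knockout cells. Fabp4, a fatty acid carrier also made by endothelium, read 8.22, 8.15 and 8.04 in wild type and 9.21, 9.72 and 9.40 in knockout cells. Cd36, a fatty acid transporter, and Retn, the hormone resistin, were also higher on every knockout array than on every wild type array, by 0.37 and 0.18. Cd36 was dim, with means of 3.39 in wild type and 3.76 in knockout cells, well below the median gene. Retn was near the median gene, with means of 5.64 and 5.82. Without Fabp4 the sums overlapped, at 714 to 884 and 733 to 951, and Adipoq, the defining adipocyte hormone, lay between 4.13 and 4.49 and between 4.18 and 4.34. Summed levels overlapped between the genotypes for pericyte markers (919 to 1343 in wild type and 838 to 1363 in knockout cells), endothelial markers (615 to 676 and 650 to 695), blood cell markers (501 to 598 and 589 to 630) and Schwann cell markers (1334 to 1963 and 1458 to 1680). Of these lists 6 of 10, 6 of 12, 8 of 13 and 2 of 5 markers were above 0. Groups did not overlap for Ptprb (endothelial), Cd68 (blood cell) and Gfra3 (Schwann cell), which differed by 0.42, 0.36 and 0.17. Nor did they for Ms4a1 (blood cell), which differed by -0.22. Ptprb and Ms4a1 were below the median gene on every array. The pericyte sum leans on Mcam, between 8.27 and 9.65 on the 6 arrays, and the Schwann cell sum on Pmp22, between 10.14 and 10.79.

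Of 16 basal markers 7 were above 0, with a median of -0.01 and a mean of the other sign, 0.03, and the summed level was 42286 to 48132 in wild type and 40411 to 47783 in knockout cells. Of 16 luminal markers 15 were below 0, with a median of -0.37. Groups did not overlap for the basal marker Krt14 and the luminal marker Anxa3, both lower in knockout cells, by -0.12 and -0.48. The summed level of the luminal markers was 6760 to 14562 in wild type and 6285 to 8794 in knockout cells. In wild type it was lowest on replicate 1 and highest on replicate 2. Among the wild type arrays, Dcn, Lum and Sparcl1 were highest on replicate 1, and Dpt and Ogn on replicate 2. Of 22 dissociation stress genes 21 were above 0, with a median of 0.36 and sums of 21864 to 35211 and 25363 to 47863. What part these lists have in the members' differences was not tested.

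**Figure D4:**
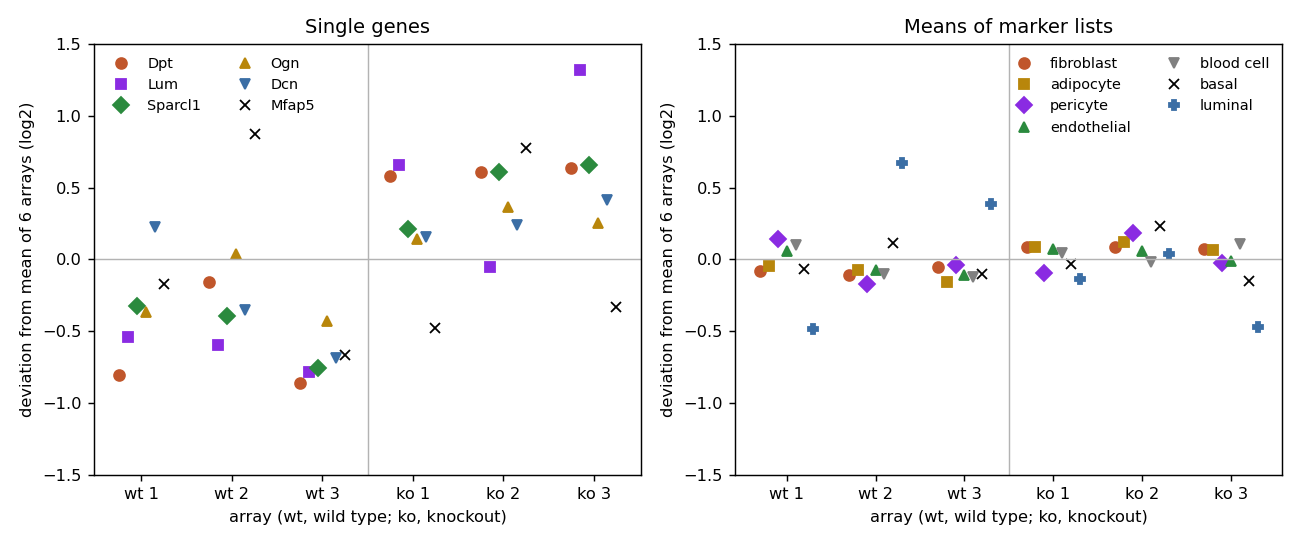
Deviation from the mean of the 6 arrays (log2, vertical axis) on each array (horizontal axis) for 6 matrix genes on the left and for the means of 7 marker lists on the right, on the same scale. Dpt, Lum, Sparcl1 and Ogn lie higher on the knockout arrays, the fibroblast and adipocyte means move the same way by less, and the luminal mean is highest on wild type replicates 2 and 3.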

How the data were processed

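RNA of sorted basal cells was amplified, labelled with biotin and hybridised to 6 whole-transcript arrays, per the labels' protocols. The authors deposited log2 values per probe set. RMA, which corrects background, normalizes arrays and summarizes probes, and Transcriptome Analysis Console 4.0 are named per the submitters' processing notes. Of 41345 rows 23521 had 1 gene symbol in the platform annotation, 1814 several and 16010 none here. Keeping the brightest row of a gene left 22180 genes, and 3 members had several rows. The knockout was set against wild type in limma 3.58.1 (R 4.3.3, lmFit and eBayes with the prior following the mean, two-sided). P-values were adjusted by Benjamini-Hochberg over all genes, with a threshold of 0.05. The fit was tested on simulated data with changes larger than those of any member, so that test does not bear on differences of the members' size. The members and lists were chosen with earlier results of these data known. Of each list the 3 genes of smallest p could be named, with the 5 genes nearest to the members' mean profile. Other genes were named after their values were seen: Fstl1, Col1a1, Gpx3, Mmp2, Mcam, Pmp22, Adipoq, Retn, Col5a1, Esm1, Tlr4, Spock2 and the chromosomal neighbours. Deviations of same-numbered arrays correlated across genes with r of 0.121, 0.250 and 0.127, and those of wild type replicate 1 and knockout replicate 3, numbered differently, with 0.130. Since each same-numbered pair was above 0.1, the numbers were treated as possible pairs, although the labels do not say what they share. The number of arrays limits the precision. A p-value here sets the difference between the groups against the spread between these arrays, which limma moderates with that of other genes. Whether that spread is between animals or pools is not known.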

Additional observations from a re-analysis of the deposited data

How the results depend on the processing

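No gene and no member passed the threshold under any alternative, which were a constant or robust prior, array weights, quantile normalization, centring, bright genes only, the mean of a gene's rows, an adjusted p under 0.1 and leaving out each array. With the replicate block 0 genes passed as well, and the block changed no other call. The smallest adjusted p of a member over these alternatives was 0.139, for Dpt with array weights. The median difference of the members lay between 0.28 and 0.45 without any 1 of the arrays. Without 1 array, between 4 and 6 members had groups that did not overlap, in either direction. Smaller groups come apart more easily, and the share of all genes was not counted for these fits. That count is therefore no result about the members. The signs of Dcn, Lum, Ogn, Dpt, Sparc and Sparcl1 held under every alternative run. The sign of Mfap5 turned in 5 of 14, that of Bgn in 4 of 14, of Ccdc80 in 2 of 13 and of Fmod in 1 of 14. The priors, the replicate block and dropping dim genes leave a difference unchanged by design. So does the mean of rows for a gene with 1 row. Only the other alternatives could turn a sign. Lum and Ccdc80 are below the median gene and left the table when dim genes were dropped. The standard error of a difference, at a median of 0.173 over all genes, limits what 3 arrays can show.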

Other observations

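Bgn, Fmod and Ccdc80 each had a second probe set that was not used above. The second Bgn row lay between 7.57 and 8.00 in wild type and between 7.69 and 8.14 in knockout cells, a difference of 0.11, against -0.03 for the brighter row. The second Fmod row differed by 0.12 and the second Ccdc80 row by 0.14, beside 0.09 and 0.10 for the rows used. Apobec1, an RNA editing enzyme encoded near Mfap5 on chromosome 6, differed by 0.81, with all knockout arrays above all wild type arrays. Other neighbours lay the other way, with all knockout arrays below all wild type arrays. They were Cd200r4, near Ccdc80 on chromosome 16, and G3bp1, near Sparc on chromosome 11, which differed by -0.65 and -0.21. Cd200r4 was below the median gene on every array. These neighbours were singled out after their values were seen.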
